A study of Drosophila melanogaster with 3 samples.

Results

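The forkhead family is a group of transcription factors that bind DNA through a winged-helix domain. Its members direct the formation of gut, head, heart and body segments in the embryo, and one branch carries the insulin signal to the genome. The set described here held 10 forkhead genes of Drosophila melanogaster out of 18277 annotated genes: CHES-1-like, FoxK, foxo, FoxP, fkh, croc, slp1, slp2, bin and jumu. The set was chosen by gene family around CHES-1-like, which was selected on its number of calls in these lists, so the calls at CHES-1-like are a description and carry no test. A call was counted for a gene if its summit fell inside the gene or no more than 1000 bp outside it.

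The profiles came from whole embryos of both sexes, 0 to 24 h old, of a transgenic strain that stably expresses the J-domain protein CG10565 with GFP at its C terminus. Chromatin was fragmented by sonication to 200 to 800 bp and precipitated with an antibody against GFP. The 3 biological replicates, numbered 1, 2 and 4, formed 1 group, and there was no second condition. The sources used here do not give what drives the transgene, or whether the replicates came from separate embryo collections. Whole embryos mix many cell types, so binding in more cells and stronger binding per cell cannot be told apart.

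Binding was given as lists of calls, regions that the authors' peak caller reported with 1 control. The list from the pooled replicates held 30000 calls, as did the list of every replicate. The pooled list is labelled as peaks and background, so a low-ranked call in it need not mark binding. The replicate lists have the same size, and their low-ranked calls are read with the same caution. The list that the authors derived with the irreproducible discovery rate, here the IDR list, held 1143. They were the 1143 strongest calls of the pooled list by signal, so membership means a high pooled rank and does not mean that a call ranked alike in the replicates. Each call has a deposited signal value that orders calls within its own list, and rank 1 is the strongest. Calls among the highest 1143 of a replicate are named top calls below. The lists carry no counts of reads, and the sequencing depth is unknown.

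The 7 IDR calls of the set lay at 3 of the genes, and 5 of them in CHES-1-like. CHES-1-like (FBgn0029504, X 7682338 to 7709385, minus strand) encodes a relative of the vertebrate FoxN factors and acts with jumu in the division of heart progenitors. The gene fkh (FBgn0000659, 3R 28580976 to 28585264, minus strand), which specifies gut ends and salivary glands, held 1 call, and so did jumu (FBgn0015396, 3R 10350182 to 10361612, plus strand), the second FoxN-type gene. The other 7 genes held none. Sequences of 201 bases centred on the summit are shown for the 4 intronic calls of CHES-1-like and for the calls at fkh and jumu, because these calls carry the pattern described below. They are the plus strand of dm6 from RefSeq, and capitals mark the forkhead site TGTTTAC or TGTTTGC, or GACGC, a second site known for vertebrate FoxN proteins, on either strand.
CHES-1-like, chrX:7698326-7698526: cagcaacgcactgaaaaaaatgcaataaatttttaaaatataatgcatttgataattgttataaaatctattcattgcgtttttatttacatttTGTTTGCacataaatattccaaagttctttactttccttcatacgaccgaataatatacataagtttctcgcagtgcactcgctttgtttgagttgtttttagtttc
CHES-1-like, chrX:7700327-7700527: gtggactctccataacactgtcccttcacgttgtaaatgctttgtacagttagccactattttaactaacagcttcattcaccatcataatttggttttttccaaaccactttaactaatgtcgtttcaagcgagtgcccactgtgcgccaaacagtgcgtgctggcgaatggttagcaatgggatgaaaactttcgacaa
CHES-1-like, chrX:7705530-7705730: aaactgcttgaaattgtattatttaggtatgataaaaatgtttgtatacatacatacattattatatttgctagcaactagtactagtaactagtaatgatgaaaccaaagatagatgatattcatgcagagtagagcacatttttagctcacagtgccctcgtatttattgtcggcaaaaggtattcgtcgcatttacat
CHES-1-like, chrX:7706894-7707094: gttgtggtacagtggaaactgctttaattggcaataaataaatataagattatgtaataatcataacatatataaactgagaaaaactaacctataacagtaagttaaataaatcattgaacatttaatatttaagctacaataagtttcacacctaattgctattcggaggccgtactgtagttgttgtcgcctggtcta
fkh, chr3R:28585409-28585609: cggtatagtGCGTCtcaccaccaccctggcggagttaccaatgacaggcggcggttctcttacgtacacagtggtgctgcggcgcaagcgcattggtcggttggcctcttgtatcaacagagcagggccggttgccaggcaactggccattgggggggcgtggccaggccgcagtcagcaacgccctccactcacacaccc
jumu, chr3R:10351326-10351526: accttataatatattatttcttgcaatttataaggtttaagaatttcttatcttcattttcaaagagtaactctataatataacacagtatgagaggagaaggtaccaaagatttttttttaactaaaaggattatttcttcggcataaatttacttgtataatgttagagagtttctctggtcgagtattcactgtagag

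Along CHES-1-like the strong calls were spread over the upstream part of the gene. The annotation gives the gene 4 transcription start sites (TSSs), which lie 0, 4422, 12681 and 14467 bp downstream of the first, at X 7709385. The IDR summits lay 225, 2391, 3755, 8958 and 10959 bp downstream of that site, over 10734 bp in all, and the gaps between neighbours ran from 1364 to 5203 bp. All 5 lay upstream of the midpoint of the gene and its window, and none of the 9 pooled calls beyond the midpoint was in the IDR list. Only the summit 225 bp downstream of the first TSS lay within 500 bp of a TSS of the gene, in an untranslated exon. The other 4 lay in introns, 667 to 3723 bp upstream of their nearest TSS of the gene.

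The intronic call with its summit at X 7698426 was the strongest of the set. It had a pooled signal of 230 and rank 190, and it lay 1722 bp upstream of the third TSS. The calls that held this summit ranked 205, 293 and 148 in replicates 1, 2 and 4, with signals of 69.6, 68.1 and 90.5 in their own lists. Their summits lay 0, 21 and 27 bp from the pooled summit. All replicates thus placed this call among their top calls and at nearly the same position.

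The call at X 7705630, 667 bp upstream of the second TSS, had a pooled signal of 171 and rank 404. It ranked 373, 644 and 448 in replicates 1, 2 and 4. The call at X 7709160, 225 bp downstream of the first TSS, had a signal of 169 and rank 416, and ranked 566, 781 and 242. Both were top calls of every replicate, as was the call at X 7698426.

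The remaining pair of CHES-1-like calls differed more between replicates. The call at X 7706994 had a signal of 161 and rank 457, and ranked 102 in replicate 1, 982 in replicate 2 and 2041 in replicate 4. It was also the narrowest, 134 bp wide against 370 bp for the others, and lay 781 bp from a start of lncRNA:CR43287, a noncoding RNA gene. The call at X 7700427 had a signal of 152 and rank 525, and ranked 2532, 185 and 530. Replicate 4 was therefore the low one at X 7706994 and replicate 1 at X 7700427.

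**Figure D1:**
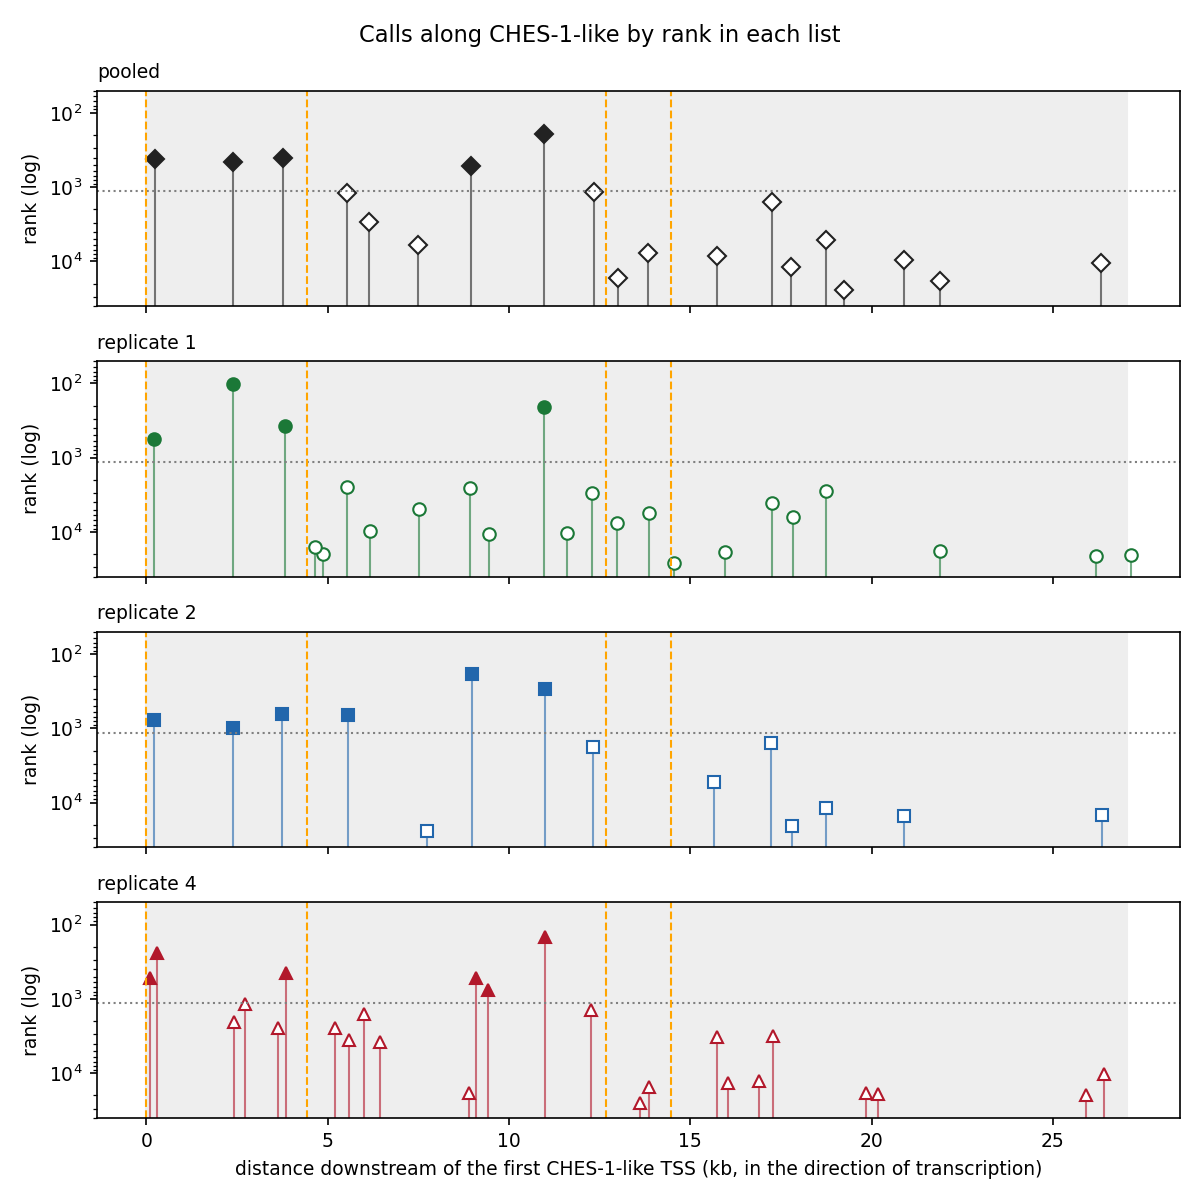
Calls along CHES-1-like by distance from its first TSS (horizontal, kb) and rank in the pooled list and each replicate list (vertical, log scale, strongest at the top). Filled symbols are ranks up to 1143 (dotted line), dashed lines are TSSs and the grey band is the gene. In all 4 lists the filled symbols end at about the call 10959 bp downstream of the first TSS.

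At fkh the single IDR call lay at the promoter. Its summit at 3R 28585509 was 245 bp upstream of the nearest TSS, and it had a pooled signal of 171 and rank 403. In replicates 1, 2 and 4 it ranked 180, 275 and 8735, and the signals in their own lists were 71.9, 70.6 and 18.8. Replicate 4 thus fell far below the others at this promoter. The sequence shown above has a GC content of 63.2%, and no other of the 1143 IDR calls reached it. Among the 14 IDR calls with 50% GC or more, the median rank was 481 in replicate 1, 238 in replicate 2 and 905 in replicate 4, against 604, 552 and 646 among the 1129 with less. These medians cover only calls found in the replicate. Of the 14 these were 14, 14 and 13 in replicates 1, 2 and 4. Of the 1129 they were 1122, 1022 and 1106, so the median of 552 leaves out the most calls. The part of base composition in the low rank in replicate 4 was not tested. The noncoding gene lncRNA:CR43126 also lay within 1000 bp of this summit.

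At jumu, which also modifies silencing near heterochromatin, the IDR call had its summit at 3R 10351426, in an intron 1244 bp downstream of the TSS. It ranked 1436 in replicate 1, 930 in replicate 2 and 1006 in replicate 4. Its pooled signal of 106.49 (rank 1139) was just above the 106.05 of the weakest IDR call. The nearest pooled call of the set below that limit was in CHES-1-like, at X 7697041, 337 bp upstream of a TSS, with a signal of 105.68 (rank 1151). The next were 2 further CHES-1-like calls, at X 7703857 (102.70, rank 1205) and X 7692139 (89.07, rank 1589), and a slp1 call (86.42, rank 1688).

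**Figure D2:**
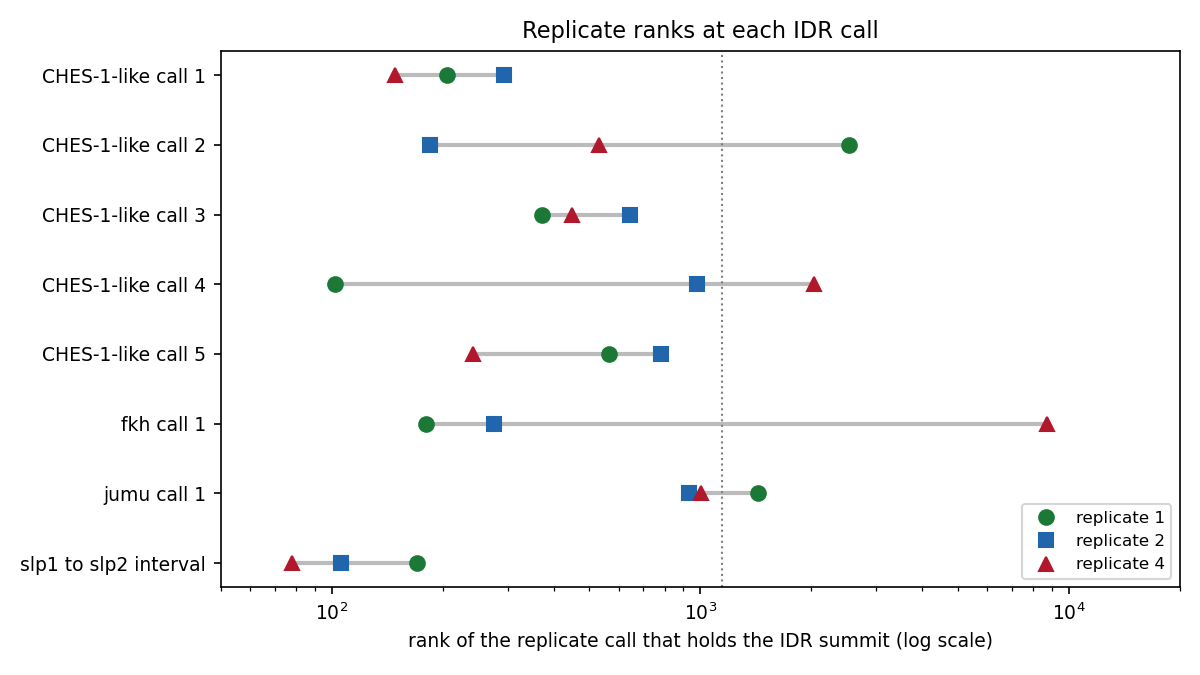
Rank (log scale) of the replicate call that holds each IDR summit at CHES-1-like (call 1 has its summit at X 7698426 and call 5 at X 7709160, in genomic order), fkh and jumu, and of the IDR call between slp1 and slp2. The dotted line is rank 1143, and replicate 4 at fkh lies farthest to the right, at 8735.

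Of the 7 IDR calls, 3 were top calls in every replicate, against 439 of all 1143 IDR calls (38.4%). All 3 were in CHES-1-like. The count was 5 of 7 with replicate 1 or replicate 4 left out. Leaving out a replicate makes the rule easier to meet for any IDR call, and no matching share of all 1143 is given. The pooled calls come from the same replicates, so this support is not independent of the IDR list. In each replicate list, all 7 summits lay inside some call. Most IDR calls share this. Of the 1129 with less than 50% GC, 1122, 1022 and 1106 were found in replicates 1, 2 and 4. Of the 14 with 50% GC or more, 14, 14 and 13 were found.

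The count of genes can be set against the whole annotation. Here 3 of the 10 genes held an IDR call, against 8.30% of all genes and 9.62% of protein-coding genes. The share rose with the length of the gene. It was 5.97% of genes under 5000 bp, where fkh was 1 of 6 members, 15.4% of genes of 5000 to 19999 bp, where jumu was 1 of 2, and 23.5% of genes of 20000 bp or more, where CHES-1-like was 1 of 2. The median number of IDR calls was 0 both for the members and for all genes. With so few genes and a set built around CHES-1-like, nothing about the family is read from these counts.

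Nor were 5 IDR calls common in any gene. Of all genes, 8 held 5 or more (0.0438%), all of them 20000 bp long or more, which is 0.765% of the 1046 genes of that length. Per length of gene and window, CHES-1-like held 17.2 IDR calls per 100 kb, and simj alone among these 1046 genes held more, 17.9. The 90th percentile of the same genes was 3.37 per 100 kb. Its place depends on the length limit: among 1985 protein-coding genes of 10000 bp or more, 3 held more than CHES-1-like. The arms as a whole held 0.854 and the X chromosome 0.871. The count of 5 stayed the same without a window and with windows of 500 and 2000 bp.

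**Figure D3:**
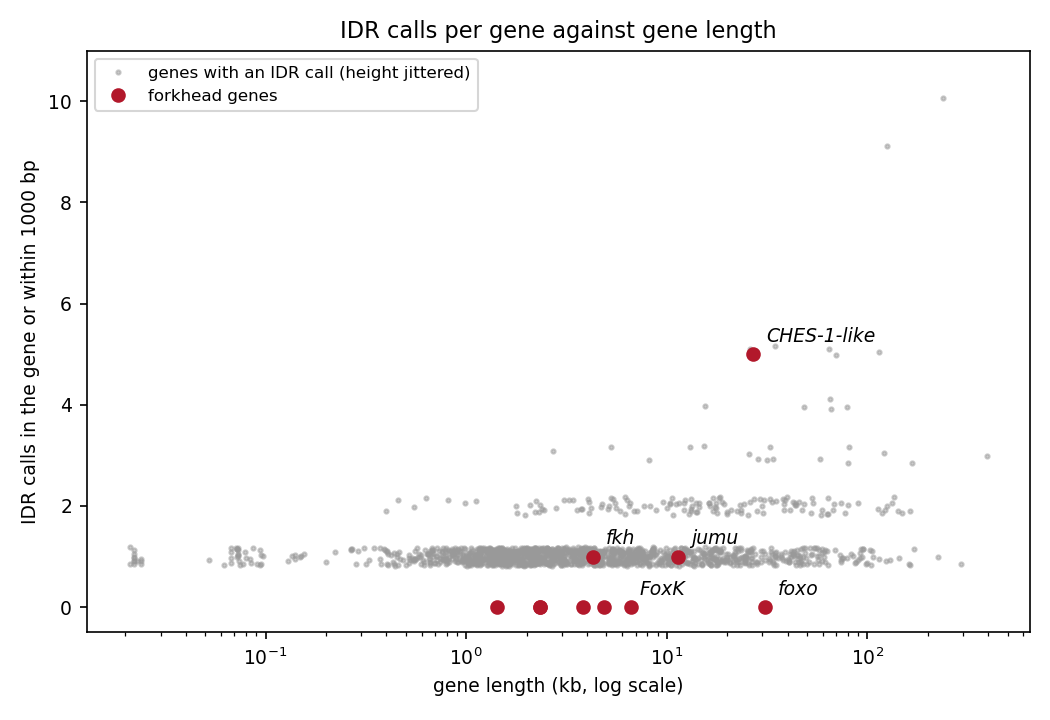
IDR calls in each gene or within 1000 bp (vertical) against gene length (kb, log scale). Grey points are all genes with an IDR call, jittered in height, and red points are the 10 forkhead genes. CHES-1-like stands at 5 calls, with fkh and jumu at 1 and the others at 0.

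The replicates gave CHES-1-like many top calls each. Replicate 1 had 4, replicate 2 had 6 and replicate 4 had 6, a mean of 5.33 ± 1.15 (SD, n = 3), or 18.4 ± 3.98 per 100 kb. All of these 16 lay upstream of the midpoint of the gene and its window. Some of the calls of replicate 4 overlapped each other, and with overlapping top calls joined the counts were 4, 6 and 4 (4.67 ± 1.15, n = 3). CHES-1-like was selected on its strong calls, so these counts are a description. The gene foxo, the nuclear effector of insulin signalling and the longest member at 31034 bp, had 0 top calls in each replicate. Calls of any rank were also counted. CHES-1-like had 23, 14 and 25 in replicates 1, 2 and 4 (20.7 ± 5.86, n = 3) and foxo 17, 9 and 22 (16.0 ± 6.56, n = 3), so their ranges overlapped. With overlapping calls joined, CHES-1-like had 22, 14 and 12 and foxo 17, 9 and 16.

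In the 10 genes together, the top calls numbered 7, 8 and 9 in replicates 1, 2 and 4. At least 1 top call was found at 4 of the genes in replicate 1, at 3 in replicate 2 and at 2 in replicate 4. The shares of all genes were 8.45%, 8.04% and 7.94%. CHES-1-like was the only member with top calls in every replicate. In the pooled list, 9 of the 10 genes held a call of some rank, against 68.7% of all genes, and slp2 held none. Over 9 members without CHES-1-like, the IDR density was 2.32 per 100 kb, from 2 calls.

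**Figure D4:**
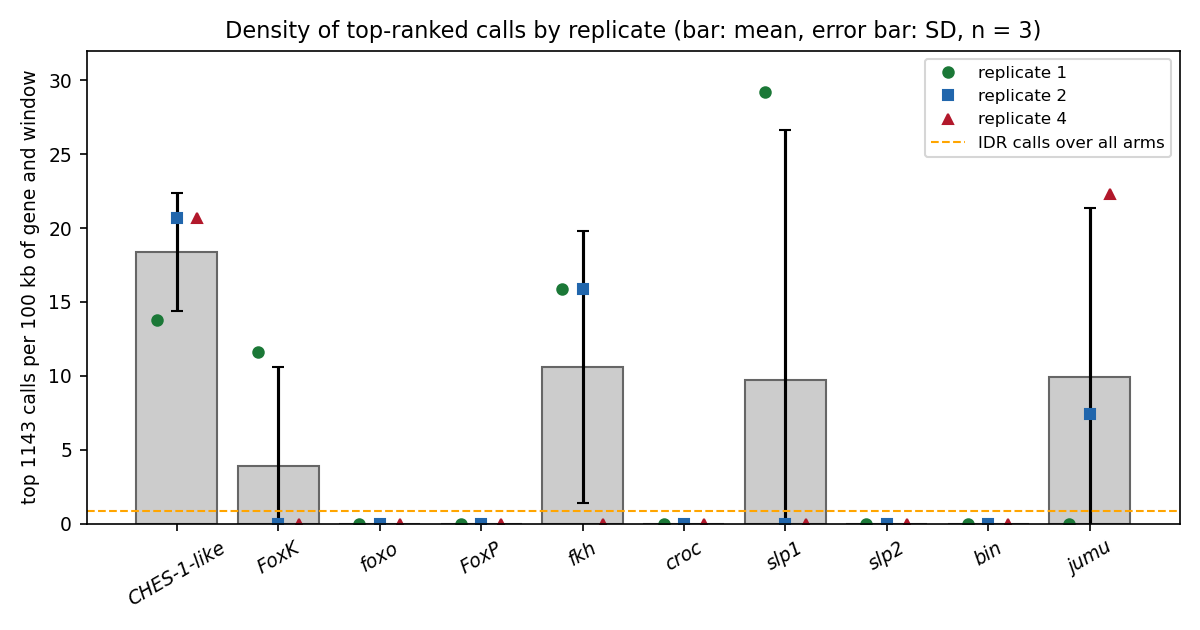
Calls among the highest 1143 of each replicate list, per 100 kb of gene and window, for the 10 forkhead genes (points: replicates, bars: mean, error bars: SD, n = 3). The dashed line is the density of IDR calls over all arms, 0.854. CHES-1-like is high in every replicate, whereas slp1 and FoxK rest on replicate 1 and jumu on replicates 2 and 4.

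At foxo (FBgn0038197, 3R 14056945 to 14087978, plus strand) 2 weak calls were nearly equal in the pool. The intronic call at 3R 14077288 had a signal of 49.4 (rank 4715), and the promoter call at 3R 14056649, 296 bp upstream of the TSS, had 49.1 (rank 4790). The intronic site was strongest in replicate 2, at rank 1380, while the strongest call lay at the promoter in replicate 1, 296 bp upstream at rank 2865, and in replicate 4, 435 bp upstream at rank 2159. Replicate 1 had no call over the intronic summit. Which site led therefore depended on the replicate.

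FoxK (FBgn0036134, 3L 11114169 to 11120783, minus strand) and FoxP (FBgn0262477, 3R 9726020 to 9730872, minus strand) carried weak calls. FoxP acts in the brain, in learning and in the control of movement. Its strongest pooled call lay downstream of the gene, at 3R 9725799, with rank 4815. This summit also lay within 1000 bp of hyd. The calls over it ranked 4926 in replicate 1 and 6607 in replicate 4, and replicate 2 had none. In replicates 2 and 4 the best call of FoxP lay elsewhere, at ranks 14732 and 4798. The strongest pooled call of FoxK lay in an intron 229 bp downstream of a TSS, with rank 4432. Its summit was within 1000 bp of mRpL2 as well. The calls over that summit ranked 5106 in replicate 1 and 1176 in replicate 4, and replicate 2 had none. In replicates 1 and 2 the best call of the gene lay elsewhere, at ranks 786 and 10878. Replicate 1 alone had a top call at FoxK, 363 bp upstream of another of its 4 TSSs.

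Genes for the head and the gut mesoderm also carried weak calls. At croc (FBgn0014143, 3L 21474133 to 21476479, minus strand), needed for head structures, each of the 4 lists had 1 call, ranked 20815 in the pool and 10196, 10772 and 26971 in replicates 1, 2 and 4. Only the replicate 2 call held the pooled summit. At bin (FBgn0045759, 3L 6990622 to 6994447, plus strand), which specifies the muscle layer around the gut, the strongest pooled call ranked 10442. The best ranks of the gene in replicates 1, 2 and 4 were 10537, 2645 and 1592. Here the replicate 4 call alone held the pooled summit. None of the replicate calls at croc or bin was a top call.

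The segmentation genes slp1 (FBgn0003430, 2L 3825675 to 3827099) and slp2 (FBgn0004567, 2L 3836840 to 3839185) are neighbours on the plus strand. The strongest call of slp1 lay 2209 bp downstream of its TSS, beyond the gene, and ranked 938 in replicate 1, 1687 in replicate 2 and 10603 in replicate 4. At slp2 the best rank was 4948 in replicate 1 and 22178 in replicate 2, and replicate 4 and the pool had no call. By the window used, neither gene was bound at IDR level.

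**Figure D5:**
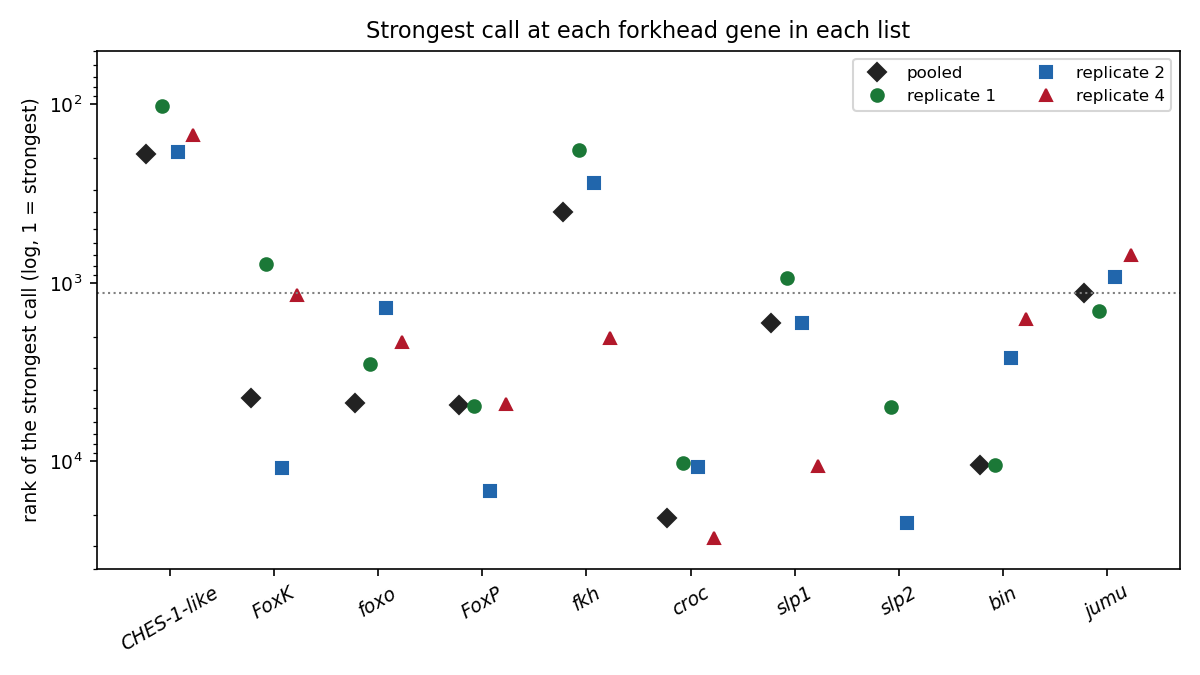
Rank of the strongest call at each forkhead gene in the pooled list and in each replicate list (log scale, strongest at the top). The dotted line is rank 1143. CHES-1-like is above the line in all 4 lists, and slp2 has points for replicates 1 and 2 alone.

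A strong call lay between the slp genes, outside their windows. It was picked out after its value had been seen. Its summit at 2L 3832546 was 5447 bp beyond the end of slp1 and 4294 bp upstream of the TSS of slp2, in a gap of 9740 bp. Its pooled signal was 289 (rank 102), above every call placed at a member, and it ranked 170, 106 and 78 in replicates 1, 2 and 4. It was a top call in all 3. Its sequence is shown because no window up to 2000 bp gives it to a gene of the family. The capitals are a GACGC.
slp1 to slp2 interval, chr2L:3832446-3832646: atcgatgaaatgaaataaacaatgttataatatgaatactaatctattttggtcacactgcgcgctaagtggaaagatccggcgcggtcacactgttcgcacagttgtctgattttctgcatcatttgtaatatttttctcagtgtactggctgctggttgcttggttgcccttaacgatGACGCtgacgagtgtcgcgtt

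A further pair of members had an IDR call nearby, also seen only afterwards. Upstream of bin, 1178 bp from its TSS, a call at 3L 6989444 had a signal of 119 and rank 906, and ranked 1454, 3533 and 423 in replicates 1, 2 and 4. Upstream of foxo, 3357 bp from its first TSS, a call at 3R 14053588 had a signal of 118 and rank 913, and ranked 861, 3021 and 577. Replicate 2 was the lowest at both. From FoxK, FoxP and croc the nearest IDR summit was 15775, 23236 and 39670 bp away.

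The 7 IDR calls were searched for sites of the family. Within 100 bp of the summit, TGTTTAC or TGTTTGC on either strand occurred in 1 of the 7, against 11.5% of all 1143 IDR calls and 11.1% of the 28738 pooled calls clear of them. In that call, the strongest of CHES-1-like, TGTTTGC ran from X 7698420 to 7698426 and ended on the pooled summit. GACGC occurred in 1 of the 7, at fkh on the minus strand, against 11.3% and 14.8%. GAGAG, known as the site of Trithorax-like, occurred in 2, against 23.2% and 19.5%, and CGATA, the core of the BEAF-32 site, in none, against 25.8% and 22.7%. The median GC content of the 7 was 31.3%, where all IDR calls had 34.3%.

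Other members of the family were looked up by symbol, and 8 genes were found: fd3F, fd19B, fd59A, FoxL1, fd96Ca, fd96Cb, fd102C and CG32006. CG32006 was counted because RefSeq lists FoxJ1 among its other names, and its domain was not examined here. No IDR call and no top call of a replicate was placed at any of them. Among all genes 8.30% held an IDR call, and among genes under 5000 bp 5.97% did. The shares of all genes with a top call were 8.45%, 8.04% and 7.94% in replicates 1, 2 and 4. With 8 genes, an absence is not set apart from these shares. The strongest pooled call was at fd96Ca, 512 bp upstream of a TSS, with a signal of 64.1 and rank 2853. It was followed by fd3F (rank 3939), FoxL1 (6520), fd102C (10768) and CG32006 (23211). No pooled call was placed at fd19B, fd59A or fd96Cb. In fd19B the replicates had none either.

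Genes that work with the forkhead factors were counted by list. Of 19 genes listed for the insulin and FOXO pathway, bsk and puc of JNK signalling among them, 8 held an IDR call. These were 9 calls in all or 3.33 per 100 kb. The strongest lay in introns of bmm, a lipase of the fat body (signal 302), Lpin, a phosphatidate phosphatase (234), InR, the insulin receptor (226), and ImpL2, a secreted insulin-binding protein (200). Of 24 genes of heart, visceral mesoderm and segmentation, 2 held an IDR call, fz, a Wnt receptor (225), and Doc2, a T-box factor (141), or 0.359 per 100 kb. Of 10 salivary gland and head genes, none held one. Over all genes the share with an IDR call was 8.30%, and the arms held 0.854 IDR calls per 100 kb. The arms include DNA between genes, so their density is not a like measure. By length the share was 5.97% of genes under 5000 bp, 15.4% of those of 5000 to 19999 bp and 23.5% of longer ones. The lists were not matched for length. For example, bmm is 9917 bp long, ImpL2 12142 bp, Lpin 19669 bp and InR 49074 bp. The median over the genes of each list was 0 calls, as over all genes, and these counts carry no test.

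The genes with a pattern most like that of CHES-1-like were found by Euclidean distance over 5 densities on the scale log2(1 + calls per 100 kb), for the pooled list, the IDR list and the top calls of each replicate. Among 1982 other protein-coding genes of 10000 bp or more, the nearest were CG14434 (distance 0.790), Rtnl1 (0.843), Baldspot (0.869), Atat (0.948) and ph-p (1.15). CG14434, also on the X and 15286 bp long, held 3 IDR calls, or 17.4 per 100 kb of gene and window. It held 4, 3 and 3 top calls in replicates 1, 2 and 4. The other 4 held 2 IDR calls each.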

How the data were processed

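The lists cover anti-GFP chromatin immunoprecipitation from 3 replicates. Per the labels and the deposited description of the files, the authors called each replicate list on its own alignment, the pooled list on all 3 alignments, with 1 control alignment each, and derived the IDR list from these. Every IDR call was among the 1143 strongest pooled calls. Which aligner, caller and threshold were used was not given in the sources used here. The signal of each call is the authors' deposited value and was used only to rank calls within a list. Depth is unknown. The lists in dm3 were not used.

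Genes, transcripts and TSSs came from Ensembl release 115 without transposable elements, and sequence from RefSeq release 6 of the same assembly. All calls lay within its chromosome lengths. Scripts used python 3.11.15, numpy 2.4.6 and pandas 2.3.3. Gene counts, replicate support and motif search were checked on simulated data. The members and lists were chosen with earlier results of these data known, so no test was made. Named items were all members with their IDR calls or strongest pooled call, 8 further family genes, up to 4 genes of each related list and the 5 genes most like CHES-1-like. The motifs other than the forkhead site, the calls outside the windows and simj were added after values had been seen. Alternatives were other windows, overlap in place of summits, the 571 strongest IDR calls, merged calls, other rank limits, other rules of support, other motif windows and letters, and each replicate left out.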

Additional observations from a re-analysis of the deposited data

How the results depend on the processing

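The 5 IDR calls of CHES-1-like and the absence of IDR calls at the other family genes held under all 6 alternatives tried for each. That absence covers 8 genes, and 8.30% of all genes held an IDR call, so nothing is read from it. The number of members with an IDR call was 2 without a window, where fkh was lost, 2 among the 571 strongest IDR calls, where jumu was lost, and 4 with a window of 2000 bp or with any overlap, where bin was added. Calls in every replicate, 3 of 7, became 5 among the top 2286 calls of each list and 7 with calls of any rank, and ranged from 3 to 5 with 1 replicate left out. The mean number of top calls at CHES-1-like rose from 5.33 to 7.33 among the top 2286 calls. For the 10 genes it was 8 ± 1, then 13.3 among the top 2286 calls, 6.67 without a window and 9 with 2000 bp. Joining the overlapping top calls of a replicate, an alternative chosen after seeing the data, gave 4.67 at CHES-1-like and 7.33 for the 10 genes. The share of genes with an IDR call was 9.62% of protein-coding genes, and 3.22%, 7.13% and 10.6% of all genes with windows of 0, 500 and 2000 bp. The forkhead site was in 3 of the 7 calls when shortened to TGTTTN, a string found in 67.0% of all IDR calls. These shifts follow from how each alternative was built. No alternative reversed a value. The depth behind the lists limits all of these values and is unknown. No paired analysis was possible because there was 1 group.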

Other observations

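Over the 3 replicates the 10 genes had 24 top calls, and 18 of them held an IDR summit. The replicate 4 calls at ranks 242 and 516 held the same one, at X 7709160. No matching share of all top calls is given. The other 6 of the 24 held none. In replicate 4 these were the jumu promoter, 138 bp upstream of the TSS (rank 694), a second intronic site of jumu at 3R 10357185 (rank 820) and a CHES-1-like call at X 7699977 (rank 754). The last is not a separate site. It overlapped the replicate 4 top call at X 7700301 (rank 530), which held the IDR summit at X 7700427. Replicate 2 had a CHES-1-like site at X 7703814 (rank 660), and replicate 1 had the FoxK intron (rank 786) and the site beyond slp1 (rank 938). In the pooled list the sites of jumu ranked 2709 and 2051, that of FoxK 5843 and that beyond slp1 1688. The CHES-1-like site at X 7703814 ranked 1205 there, and the call at X 7699977 held no pooled summit.

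Summits of the 7 IDR calls lay within 100 bp of the summit of the replicate call in all 3 replicates for 5 calls. No matching share of all 1143 IDR calls is given, so whether this is usual cannot be told. The widest offset, 171 bp, was at jumu in replicate 4, whose calls are most often 600 bp wide.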
